A study of Mus musculus with 21 samples.

Results

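The genes described here are 40 components of the machinery that copies chromosomal DNA, from the factors that license origins to the enzymes that supply deoxynucleotides. They were taken from a list of symbols, drawn up with earlier results of these data known, and all 40 were found among the 55421 genes of the expression table. That table comes from QuantSeq, a 3′ mRNA sequencing method that reads one tag near the 3′ end of each transcript, in a mouse lymphoid progenitor (LP) line. The line was established from Ebf1-deficient C57BL6/J progenitors, which lack the factor that commits cells to the B lineage, and it grows on OP9 stroma with SCF, IL-7 and Flt3L, here without Notch stimulation. All 5 groups carried Cas9 and GFP, all received an sgRNA vector marked by hNGFR, and GFP+ hNGFR+ cells were sorted 5 days after sgRNA introduction. The sgRNAs were against luciferase (sgControl) or, as a pool of 2 per gene, against Lmo2, a bridging factor, Zbtb1, a zinc finger transcription factor, or Cbfa2t2 and Cbfa2t3, corepressors of the ETO family. Each group had 3 libraries, all from this 1 line, and the comparisons ask what each loss does to the LP transcriptome. Lists of ChIP-seq peaks of Zbtb1 and of Cbfa2t3, 1 for each factor, were used beside the expression values.

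DNA replication starts when the origin recognition complex, with Cdc6 and Cdt1, loads the ring of Mcm proteins onto DNA in G1. Cdc45 and the GINS complex then turn the ring into an active helicase, polymerase alpha with primase lays down primers, and the clamp loader RFC places the sliding clamp PCNA, which holds polymerases delta and epsilon to the template. RPA coats the exposed single strands, Fen1 and Lig1 finish the lagging strand, and ribonucleotide reductase, thymidine kinase and thymidylate synthase provide the building blocks. Many of these genes are known targets of E2F factors and are transcribed mostly around the G1/S transition, so their mRNA levels in a culture follow how many of its cells are dividing. In bulk libraries of this kind, fewer cells in S phase and less RNA per cell cannot be told apart.

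Values are given in CPM, the reads of a gene scaled to the same total of reads in every library. Depth ranged from 1705416 to 2095447 reads, so that 3 reads were worth 1.43 to 1.76 CPM. The targeted mRNAs were compared with the labels first, and none of the 4 was lower beyond the test in its own libraries. Zbtb1 mRNA rose in the libraries labelled sgZbtb1, to 106 ± 9.91 CPM (SD, n = 3) against 61.7 ± 5.51 in sgControl (adjusted p = 0.00102), and Cbfa2t3 mRNA rose in those labelled sgCbfa2t3, to 349.8 ± 12.9 against 190.2 ± 18.7 (adjusted p = 1.67e-07). Lmo2 and Cbfa2t2 did not pass the test in their own libraries (adjusted p = 0.957 and 0.412). Ebf1 mRNA was read at 209 to 366 CPM in all 15 libraries of this Ebf1-deficient line, where a 3′ tag need not lie in the deleted part. By limma it was lower in sgZbtb1, at 217 ± 6.74 CPM against 336 ± 30.5 CPM in sgControl (adjusted p = 6.96e-06). Its means in sgLmo2, sgCbfa2t2 and sgCbfa2t3 were also below the control and did not pass (adjusted p = 0.849, 0.144 and 0.0979). A 3′ tag also counts transcripts that carry a frameshift, so it does not check the protein. The study's own check of these sgRNAs was by immunoblot of Lmo2, Zbtb1 and Cbfa2t3, which is not analysed here, and it describes no blot of Cbfa2t2. Directions below are those of the libraries as labelled. All 11 LP markers looked for were detected, and both their sum and single markers moved with the groups. The sum was 1961 to 2051 CPM in sgControl, 2067.5 to 2105 CPM in sgLmo2 and 1787 to 1952.5 CPM in sgZbtb1, neither of which overlapped the control, while sgCbfa2t2 and sgCbfa2t3 did. Ly6d, a surface marker of B-lineage-biased progenitors, fell from 158 ± 26.1 CPM in sgControl to 29.4 ± 6.75 CPM in sgZbtb1 (log2 fold change -2.40, adjusted p = 3.19e-20), 57.9 ± 8.52 CPM in sgCbfa2t3 (adjusted p = 6.82e-10) and 97.1 ± 3.54 CPM in sgCbfa2t2 (adjusted p = 0.0186). In sgZbtb1 Kit, the SCF receptor, fell by 1.14 (adjusted p = 0.0205) and Ptprc, the pan-leukocyte CD45, by 0.28 (adjusted p = 0.0393) on the log2 scale, while Cd34 rose by 0.53 (adjusted p = 0.00107). Of these 4, edgeR called Cd34, Kit and Ly6d and DESeq2 called Kit, Ly6d and Ptprc. None of the 11 passed in sgLmo2 by limma, edgeR or DESeq2, with 3 at an unadjusted p under 0.05 by each. Of 12 OP9 stromal markers only Pdgfrb had a mean above 1 CPM, Col3a1, Postn, Lum and Dcn were at 0 in all 15 libraries, and the list summed to 1.96 to 13.7 CPM. Of the 5 B-lineage markers Pax5 alone had a mean above 1 CPM, and that list summed to 0 to 1.96 CPM in sgZbtb1 and 1.61 to 3.995 CPM in sgCbfa2t3 against 5.21 to 8.8 CPM in sgControl. The 6 committed T cell markers, of which Trac and Lat had a mean above 1 CPM and Cd8a was at 0 in all libraries, summed to 20.1 to 33.0 CPM in sgZbtb1 and 27.2 to 31.9 CPM in sgCbfa2t2 against 36.6 to 45.7 CPM in sgControl. The other groups overlapped the control for the B-lineage and T cell lists. The part of these markers in the results was not tested.

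All 40 genes were expressed. Their means over 15 libraries ran from 12.1 CPM for Rpa3, the smallest RPA subunit, to 889 CPM for Mcm7, with a middle value of 88.1 CPM, and 17 of them exceeded 100 CPM. After Mcm7 came Lig1 at 518 CPM, Mcm3 at 468 CPM, Mcm6 at 339.99 CPM and Rrm1 at 309 CPM, and the lowest after Rpa3 were Orc1 at 15.8 CPM and Pole2 at 22.7 CPM. Since QuantSeq counts 1 tag per transcript, transcript length does not enter these levels. Reads behind a single value ranged from 11 to 2088. Together the 40 genes took 0.560 to 0.622% of the reads of a library.

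The spread of these levels across the study is described for the 40 genes alone. The coefficient of variation over the 15 libraries was 4.44 to 39.0%, with a middle value of 11.5%. The ratio of the highest to the lowest of the 5 group means was 1.04 for Rfc1, the large clamp loader subunit, and reached 1.61 for Rpa3 and Gins1, 1.59 for Orc1 and 1.54 for Pole2. These were the 4 of 40 genes whose ratio was at or above 1.5, and 0 reached 2. Neither measure was taken over all genes, so whether these genes vary less than others of like level was not tested. Group means were highest in sgZbtb1 for 17 genes, in sgCbfa2t2 for 12, in sgCbfa2t3 for 7, in sgLmo2 for 3 and in sgControl for 1. The shares of all genes highest in each group were not taken, so these counts have no background beside them. Replicates of a group differed by more than counting error for 29 of the 40 (72.5%), against 68.4% of the 8157 genes with a mean above 10 CPM.

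**Figure D1:**
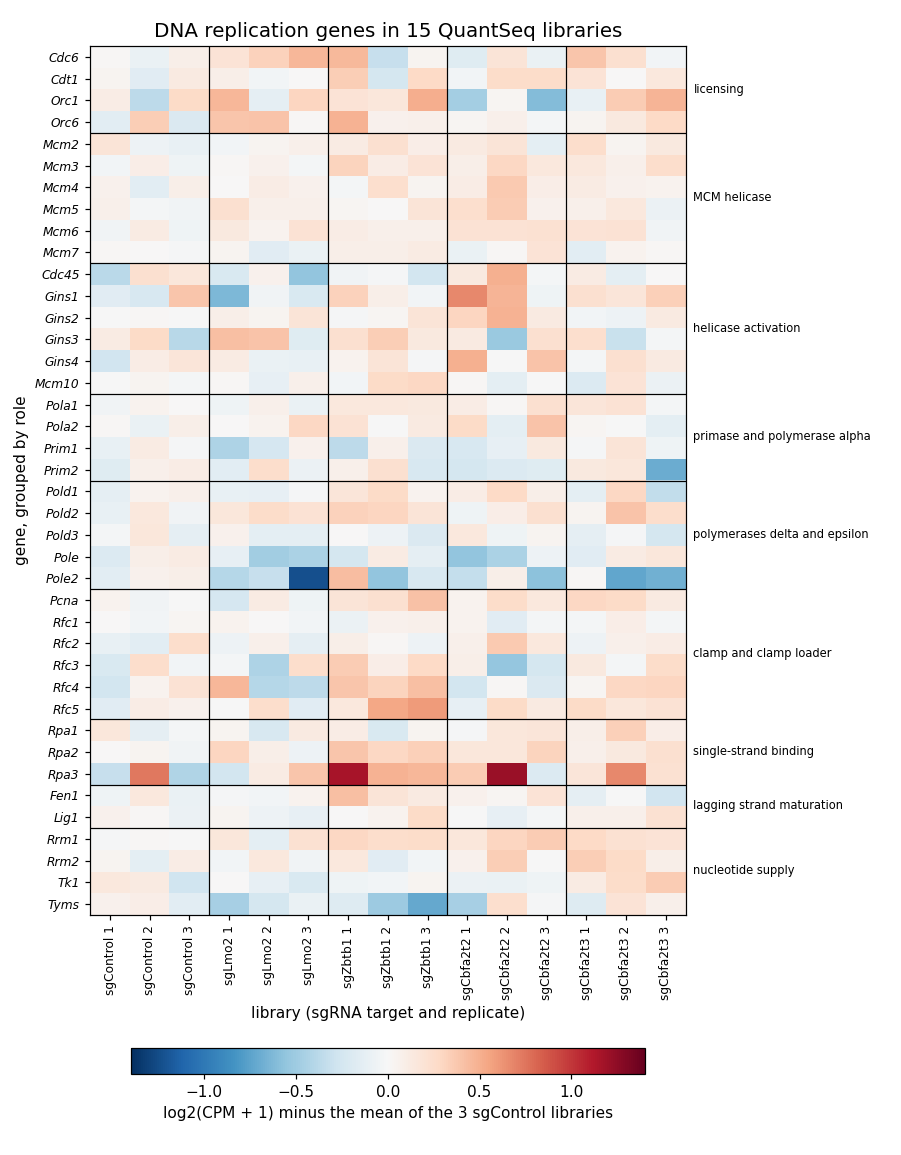
Heat map of the 40 genes (vertical axis, grouped by role) in the 15 libraries (horizontal axis), where colour gives log2(CPM + 1) minus the mean of the 3 sgControl libraries. Most cells are pale in all 5 groups, and the darkest belong to the low genes Rpa3 and Pole2.

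The promoters of these genes share letters that the choice by symbol did not use. Of the 40, 33 had an entry among RefSeq promoters (build GRCm38.p6, 250 bases before to 50 after the start), with 38 promoters in all. The E2F site was searched on both strands as TTCCCGC and as its variants, of which one reads TTGGCGC and the other TTCGCGC. At least 1 of these 3 spellings stood in 23 of 38 promoters (60.5%), belonging to 21 genes, against 8.07% of 32851 promoters and 14.9% of the 10792 promoters of the genes tested. Singly, TTCCCGC was in 36.8% of the 38, against 4.6% of all promoters and 8.61% of those of the genes tested. For TTGGCGC the shares were 26.3%, 2.45% and 4.39%, and for TTCGCGC 18.4%, 1.59% and 3.25%. CCAAT was in 57.9%, 37.4% and 38.1% of these sets, whereas TTTGAA, the cell cycle homology region spelling, was in 13.2%, 17.9% and 12.0%. The Runx core TGTGGT was in 18.4%, 16.8% and 12.7%. A match is a description of the letters only. The stretches of 5 promoters that hold a spelling are printed 5′ to 3′ on the gene's strand with E2F spellings in capitals. Since all 5 hold a match, they do not show how often it occurs. Rfc5, Pcna and Tyms, also described below, are among the 12 genes with an entry and no such spelling.

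The stretch before Rpa2 (chr4:132768110-132768331, plus strand) holds GCGGGAA, the reverse complement of TTCCCGC, 37 bases before the start. That before Rrm1 (chr7:102441445-102441694, plus strand) holds TTCCCGC 67 bases before the start, and that before Mcm7 (chr5:138171267-138171516, minus strand) holds it 113 bases before. Those before Mcm5 (chr8:75109259-75109508, plus strand) and Mcm6 (chr1:128359706-128359955, minus strand) hold TTGGCGC and TTCGCGC, on opposite strands and in part overlapping, since the longer run TTCGCGCCAA reads as both.
Rpa2: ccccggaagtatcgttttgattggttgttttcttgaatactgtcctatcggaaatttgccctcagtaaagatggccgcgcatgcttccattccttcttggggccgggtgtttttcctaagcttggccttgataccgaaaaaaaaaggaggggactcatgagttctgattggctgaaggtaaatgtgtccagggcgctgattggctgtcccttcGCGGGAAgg
Rrm1: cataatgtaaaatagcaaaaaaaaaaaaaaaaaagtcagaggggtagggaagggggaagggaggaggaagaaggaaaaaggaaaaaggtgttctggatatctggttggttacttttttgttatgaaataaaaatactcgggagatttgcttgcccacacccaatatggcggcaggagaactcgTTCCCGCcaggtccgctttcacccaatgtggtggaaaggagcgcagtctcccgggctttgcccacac
Mcm7: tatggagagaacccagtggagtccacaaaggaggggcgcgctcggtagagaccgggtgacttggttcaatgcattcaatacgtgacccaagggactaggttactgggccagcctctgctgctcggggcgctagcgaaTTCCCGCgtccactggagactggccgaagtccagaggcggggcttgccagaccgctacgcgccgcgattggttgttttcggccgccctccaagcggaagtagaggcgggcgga
Mcm5: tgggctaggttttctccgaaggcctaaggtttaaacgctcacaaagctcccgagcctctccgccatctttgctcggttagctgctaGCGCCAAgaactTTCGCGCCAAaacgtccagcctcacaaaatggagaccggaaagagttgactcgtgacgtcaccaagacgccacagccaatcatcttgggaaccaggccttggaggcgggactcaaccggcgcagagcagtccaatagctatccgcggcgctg
Mcm6: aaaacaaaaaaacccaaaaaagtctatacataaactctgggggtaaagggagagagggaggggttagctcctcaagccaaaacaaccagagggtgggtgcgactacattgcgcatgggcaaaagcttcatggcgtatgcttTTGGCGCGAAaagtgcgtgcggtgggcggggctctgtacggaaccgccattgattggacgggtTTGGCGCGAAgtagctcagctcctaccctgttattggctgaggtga

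Of the 40 genes, 1 passed the test in any comparison with sgControl, and that was Rpa2, the middle subunit of RPA, which rose in the libraries labelled sgZbtb1. The test was limma on log2(CPM + 1), fitted over all 15 libraries and adjusted over 11554 genes with a mean above 1 CPM. In this comparison 4.79% of all genes tested passed at an adjusted p under 0.05, 1.85% of them higher, so that 1 of 40 is no more than the background gives. None passed in sgLmo2, sgCbfa2t2 or sgCbfa2t3 against sgControl, where 0.0173%, 0.147% and 0.537% of all genes passed, nor between sgZbtb1 and sgCbfa2t3, where 1.13% passed. With limma's unadjusted p under 0.05 the counts were 1 in sgLmo2 (5.65% of all genes), 6 in sgCbfa2t2 (9.56%), 1 in sgCbfa2t3 (10.6%) and 3 between sgZbtb1 and sgCbfa2t3 (10.0%). On the recovered reads, edgeR's quasi-likelihood test and DESeq2 also called 0 in these 4 comparisons, with 2, 4, 3 and 3 genes at an unadjusted p under 0.05 by edgeR and 1, 4, 2 and 3 by DESeq2. In sgZbtb1 against sgControl 6 genes had an unadjusted p under 0.05 (17.6% of all genes), namely Mcm3, Pcna, Rfc5, Rpa2 and Rrm1 above the control and Tyms below it. The study's thresholds (an unadjusted p under 0.05, a change of over 2-fold and a group mean above 10) were also applied to the limma fit. None of the 40 met them in any comparison, whereas 1.66% of all genes did in sgZbtb1, 0.234% in sgLmo2, 0.502% in sgCbfa2t2, 0.658% in sgCbfa2t3 and 0.71% between sgZbtb1 and sgCbfa2t3.

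The size of the changes was bounded for nearly all of them. The 95% interval of the log2 fold change lay within 1 of 0, that is, within a 2-fold change, for 39 of 40 genes in sgLmo2 (66.5% of all genes tested), sgZbtb1 (63.1%) and sgCbfa2t2 (66.4%), for 38 in sgCbfa2t3 (65.2%) and for 39 between sgZbtb1 and sgCbfa2t3 (65.3%). All 40 had a mean above 10 CPM, while the genes tested went down to 1 CPM, so these shares are not at like levels. No share was taken among genes of like level. The 4 comparisons with sgControl share the same 3 control libraries, and their values are set side by side without a test of likeness. Log2 fold changes were above 0 for 20 of 40 genes in sgLmo2 (52.3% of all genes), 31 in sgZbtb1 (46.7%), 26 in sgCbfa2t2 (50.7%) and 30 in sgCbfa2t3 (48.6%). Median log2 fold changes of the 40 were 0.00, 0.11, 0.09 and 0.12 in that order, where those of all genes were 0.01, -0.03, 0.00 and -0.01. Between sgZbtb1 and sgCbfa2t3, 27 of 40 were above 0 (48.5% of all genes), with a median of 0.04. Some of these summaries depended on the setting. In sgLmo2 the count above 0 was 13 by DESeq2, 16 with median-of-ratios size factors and 9 (median -0.11) against the 9 libraries with sgRNAs to the other 3 genes. Against such libraries the medians in sgZbtb1, sgCbfa2t2 and sgCbfa2t3 were 0.07, 0.05 and 0.02. Without sgControl replicate 1 the median was 0.05 in sgCbfa2t2, and between sgZbtb1 and sgCbfa2t3 it was 0.01 without sgCbfa2t3 replicate 3 and 0.02 without sgZbtb1 replicate 3.

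**Figure D2:**
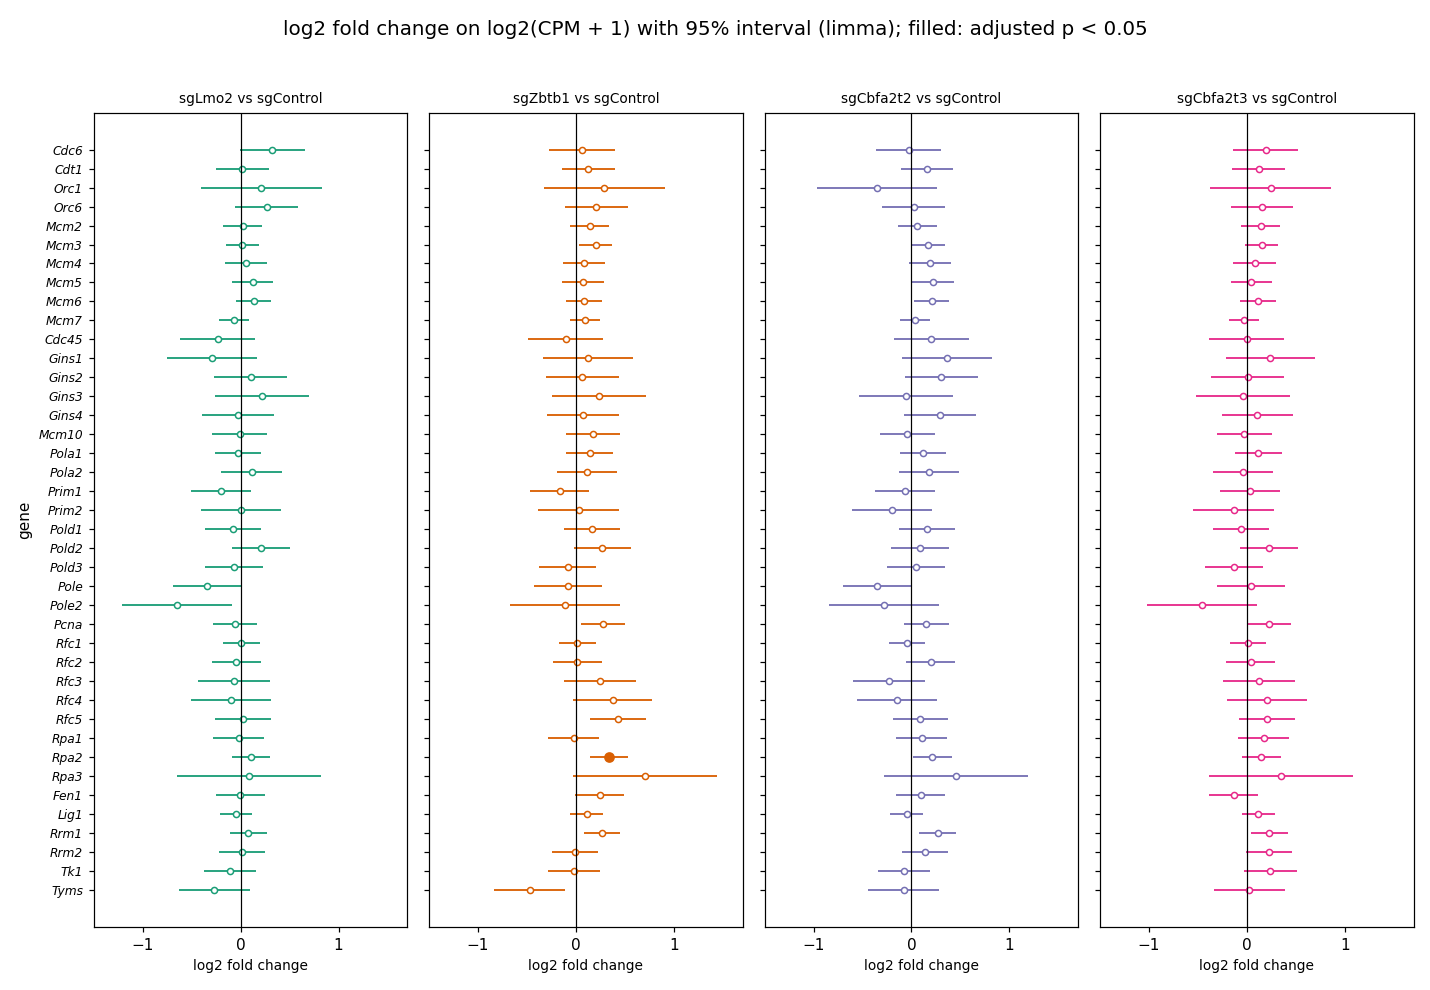
Log2 fold changes on the log2(CPM + 1) scale (horizontal axis) of the 40 genes (vertical axis) in 4 groups against sgControl, with the 95% interval from limma as bars and a filled point for an adjusted p under 0.05. Rpa2 in sgZbtb1 is the only filled point, and the widest intervals belong to Rpa3, Orc1 and Pole2.

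Summed over the 40 genes, the 3 sgControl libraries gave 5655, 5742 and 5603 CPM and those labelled sgLmo2 5812, 5596 and 5615 CPM. The sums were 6224, 6073 and 6224 CPM in sgZbtb1, 5829, 6165 and 6119 CPM in sgCbfa2t2, and 5952, 6147 and 5982 CPM in sgCbfa2t3. All 9 libraries of the latter 3 groups lay above all 3 sgControl libraries, with mean ratios of 1.09, 1.07 and 1.06, while sgLmo2 overlapped them with a ratio of 1.00. An exact permutation test of 3 against 3 cannot go below p = 0.1, so these sums are given without a p.

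**Figure D3:**
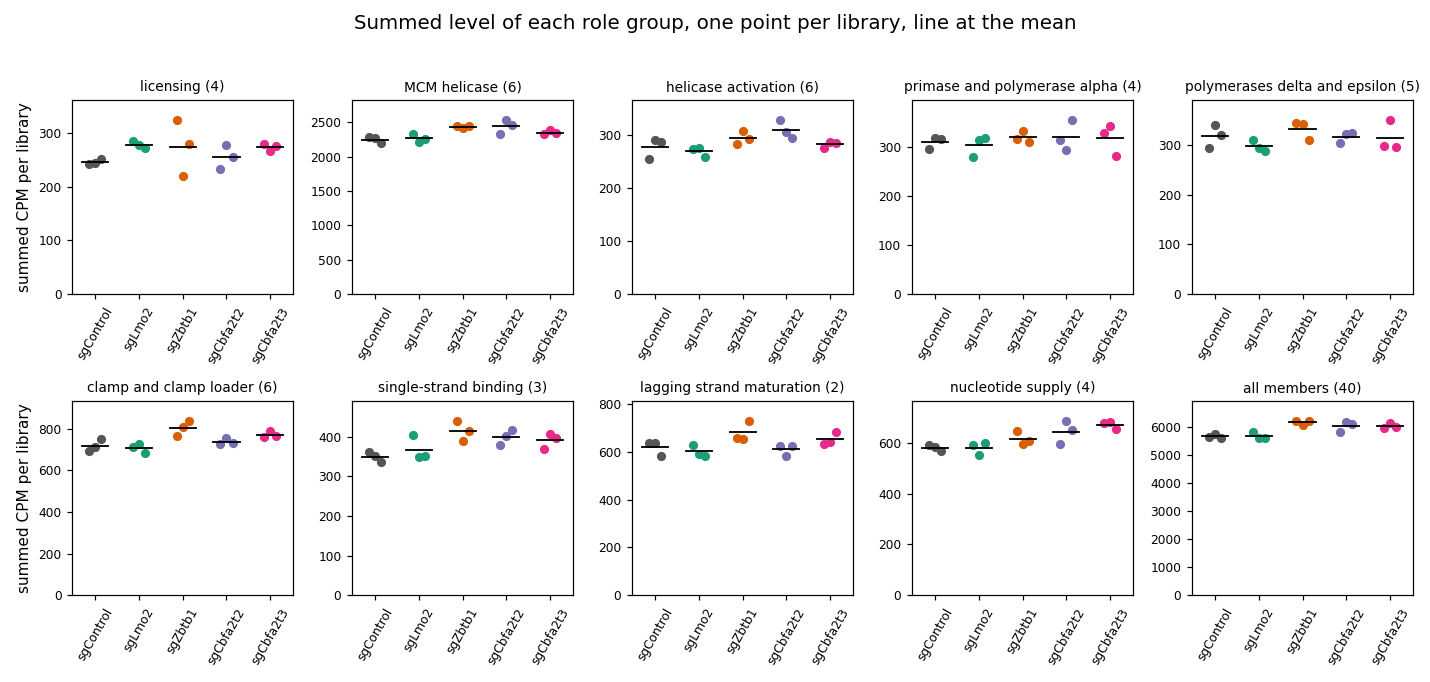
Summed CPM (vertical axis, from 0) of each role group and of all 40 genes in the 5 groups (horizontal axis), with 1 point per library and a line at the mean of 3. The MCM, RPA and nucleotide supply sums of the sgZbtb1, sgCbfa2t2 and sgCbfa2t3 libraries lie above the 3 sgControl libraries. The clamp sums do so in sgZbtb1 and sgCbfa2t3.

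Among individual genes, groups that did not overlap were also counted. All 3 libraries lay above all 3 sgControl libraries for Cdc6, Gins2 and Pold2 in sgLmo2 (3 of 40, where 5.62% of all genes did) and below them for Pole2 (4.97%). In sgZbtb1, 9 genes lay above, namely Mcm3, Mcm7, Pcna, Pola1, Pold2, Rfc4, Rfc5, Rpa2 and Rrm1 (10.1% of all genes), and Tyms lay below (12.8%). In sgCbfa2t2, Gins2, Mcm4, Mcm6, Pcna, Pold1, Rpa2 and Rrm1 lay above (7 of 40, background 6.88%) and 0 below (6.85%). In sgCbfa2t3, Lig1, Pcna, Rfc5, Rpa2 and Rrm1 lay above (5 of 40, background 6.7%) and 0 below (9.06%). The gap to the control was less than 1 read of a control library is worth for Pold2 in sgLmo2 and for Mcm4, Pcna and Pold1 in sgCbfa2t2.

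The licensing genes are Orc1 and Orc6 of the origin recognition complex and the loading factors Cdc6 and Cdt1, and none of the 4 passed the test in any comparison. Their summed levels were 243, 244 and 252 CPM in sgControl, 286, 277 and 272 CPM in sgLmo2, and 279.9, 267 and 275 CPM in sgCbfa2t3, so that these groups did not overlap with the control. The sgZbtb1 libraries were spread from 220.4 to 325 CPM, with replicate 2 the lowest of all 15. Cdc6 was at 60.4, 56.1 and 63.3 CPM in sgControl and at 68.4, 75.3 and 82.7 CPM in sgLmo2, without overlap. Its log2 fold change in sgLmo2 was 0.32 (95% interval -0.01 to 0.66, adjusted p = 0.880). Cdt1, the highest of the 4, was at 109, 95.5 and 116 CPM in sgControl and at 136, 89.9 and 129 CPM in sgZbtb1, which overlap. Orc6 overlapped the control in all 4 groups, at 0.02 to 0.27, and the highest of these, in sgLmo2, was 0.17 without sgControl replicate 3 and 0.44 without sgControl replicate 2. Orc1 rested on 19 to 43 reads a library, and its log2 fold changes ran from -0.35 (-0.97 to 0.26) in sgCbfa2t2 to 0.29 (-0.33 to 0.90) in sgZbtb1. With 1 library left out the value in sgCbfa2t2 was -0.22 without sgControl replicate 3, -0.23 without sgCbfa2t2 replicate 3, -0.54 without sgControl replicate 2 and -0.54 without sgCbfa2t2 replicate 2.

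The Mcm2 to Mcm7 genes encode the 6 subunits of the replicative helicase ring. Their summed level was 2286, 2266 and 2192 CPM in sgControl, against 2446, 2424 and 2439.9 CPM in sgZbtb1, 2328, 2539 and 2465 CPM in sgCbfa2t2, and 2325, 2382 and 2346 CPM in sgCbfa2t3. Each of these 3 groups lay above the control libraries, with mean ratios of 1.08, 1.09 and 1.05, while the sgLmo2 libraries, at 2327, 2215 and 2259.8 CPM, overlapped them. All 6 log2 fold changes were above 0 in sgZbtb1, from 0.07 to 0.20, and in sgCbfa2t2, from 0.04 to 0.22, and 0 of 6 passed the test in any comparison.

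Mcm3 was at 422, 461 and 416 CPM in sgControl, at 536, 466 and 493 CPM in sgZbtb1 and at 457, 530.2 and 479 CPM in sgCbfa2t2. Only the sgZbtb1 libraries all lay above the control, with a log2 fold change of 0.20 (95% interval 0.03 to 0.37, adjusted p = 0.172), and sgCbfa2t2 replicate 1 fell inside the control range. Mcm6 was at 304, 341 and 301 CPM in sgControl and at 361, 363 and 366 CPM in sgCbfa2t2, a tight group above the control (0.21, interval 0.03 to 0.39, adjusted p = 0.461). Mcm5 differed from sgControl by 0.22 in sgCbfa2t2 (0.01 to 0.43, adjusted p = 0.511) and by 0.07 in sgZbtb1 (-0.14 to 0.28). Mcm2 overlapped the control in all 4 groups, at 0.02 to 0.14, and Mcm4, the lowest of the 6 with a mean of 189 CPM, lay above it without overlap only in sgCbfa2t2, by 0.19 (-0.03 to 0.40, adjusted p = 0.616), where the gap was less than 1 control read. Mcm7 was at 893, 883 and 872 CPM in sgControl and at 936, 937 and 954 CPM in sgZbtb1, without overlap, yet the log2 fold change was 0.09 (-0.06 to 0.25, adjusted p = 0.572). Its 3′ end overlaps that of Cops6 on the opposite strand, whether the counting used strand is not given in the sources used here, and Cops6 differed by 0.21 in sgZbtb1 (adjusted p = 0.411).

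Helicase activation rests on Cdc45, the 4 GINS subunits and Mcm10, and 0 of these 6 passed the test in any comparison. Their sums were 254, 289 and 286 CPM in sgControl and 328, 305 and 294 CPM in sgCbfa2t2, which lay above all control libraries with a mean ratio of 1.12. Gins1 was at 26.1, 24.9 and 38.7 CPM in sgControl, at 47.4, 41.0 and 28.0 CPM in sgCbfa2t2 and at 18.7, 28.4 and 25.2 CPM in sgLmo2. Neither group was separate from the control, with log2 fold changes of 0.36 (95% interval -0.10 to 0.82, adjusted p = 0.662) and -0.29 (-0.75 to 0.16). The value in sgCbfa2t2 was 0.20 without sgCbfa2t2 replicate 1, 0.57 without its replicate 3 and 0.55 without sgControl replicate 3, and that in sgLmo2 was -0.10 without sgControl replicate 3 and -0.13 without sgLmo2 replicate 1. Gins2 was at 38.9, 39.4 and 38.7 CPM in sgControl, at 48.4, 54.9 and 42.5 CPM in sgCbfa2t2 (0.30, interval -0.07 to 0.67, adjusted p = 0.646) and at 41.3, 40.1 and 44.4 CPM in sgLmo2 (0.10, interval -0.27 to 0.47). Both groups lay above the control libraries. Its 3′ end overlaps an exon of Gse1 on the other strand. Mcm10, the highest of the 6 with a mean of 87.8 CPM, Gins3, the lowest with 29.2 CPM, Cdc45 and Gins4 overlapped the control in all 4 groups, with log2 fold changes from -0.23 for Cdc45 in sgLmo2 (-0.62 to 0.15) to 0.29 for Gins4 in sgCbfa2t2 (-0.07 to 0.66).

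Primase and polymerase alpha start each new strand, and 0 of their 4 genes passed the test in any comparison. Their sums ran from 279 to 355 CPM over the 15 libraries, with ratios of group means to sgControl of 0.980 for sgLmo2 and 1.03 to 1.04 for the others. Pola1, the catalytic subunit, was at 116, 124 and 120.2 CPM in sgControl and at 132.4, 132.4 and 131.6 CPM in sgZbtb1. Those libraries lay just above the control, by a log2 fold change of 0.14 (-0.10 to 0.38, adjusted p = 0.592). Pola2, the partner of Pola1, differed by -0.04 to 0.18 and overlapped the control in all 4 groups. For Prim1, which makes the primer, the log2 fold change was -0.20 (-0.51 to 0.10) in sgLmo2 and -0.17 (-0.47 to 0.14) in sgZbtb1, where it was -0.067 without sgZbtb1 replicate 1, -0.29 without sgZbtb1 replicate 2 and -0.11 without sgControl replicate 2. Prim2 in sgCbfa2t3 was at 46.1 and 46.8 CPM in replicates 1 and 2 and at 25.5 CPM in replicate 3, the lowest of the 15 libraries, and without that library its log2 fold change was 0.14 in place of -0.14.

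Polymerases delta and epsilon copy the bulk of both strands, and 0 of their 5 genes passed the test in any comparison. Pole2, the second subunit of polymerase epsilon, was at 24.4, 28.4 and 28.7 CPM in sgControl and at 20.4, 21.5 and 11.0 CPM in sgLmo2. The sgLmo2 libraries all lay below the control (-0.65, 95% interval -1.21 to -0.09, unadjusted p = 0.0241, adjusted p = 0.849), and without sgLmo2 replicate 3, the lowest library, the value was -0.36. Pole2 was at 36.9, 18.2 and 23.1 CPM in sgZbtb1, at 21.3, 28.6 and 17.9 CPM in sgCbfa2t2 and at 27.3, 16.0 and 16.6 CPM in sgCbfa2t3, all groups that overlap the control. It rested on 20 to 66 reads a library. Without sgZbtb1 replicate 2 its log2 fold change in sgZbtb1 was 0.10 in place of -0.11. Pole, the catalytic subunit, differed by -0.34 in sgLmo2 (-0.69 to 0.00, adjusted p = 0.878) and by -0.35 in sgCbfa2t2 (-0.70 to -0.01, adjusted p = 0.513). Pold2, a delta subunit, was at 62.7, 74.7 and 65.1 CPM in sgControl, at 75.2, 80.7 and 77.8 CPM in sgLmo2 and at 84.4, 83.2 and 76.6 CPM in sgZbtb1. Both groups lay above the control, sgLmo2, with a gap of less than 1 read, by 0.21 (-0.09 to 0.50) and sgZbtb1 by 0.27 (-0.02 to 0.56, adjusted p = 0.341). Pold1, the catalytic subunit of delta, differed by 0.16 in sgCbfa2t2 without overlap but with a gap of less than 1 control read (-0.13 to 0.44), and Pold3 by -0.13 to 0.04 over the 4 groups.

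The clamp and clamp loader group holds Pcna and the 5 RFC subunits. All 6 log2 fold changes were above 0 in sgZbtb1, with a median of 0.26, and in sgCbfa2t3, with a median of 0.16, beside -0.03 and -0.01 for all genes. The sums were 693, 711 and 752 CPM in sgControl, 764, 807 and 840.1 CPM in sgZbtb1 and 763, 789 and 765 CPM in sgCbfa2t3. Both groups lay above the control libraries, with mean ratios of 1.12 and 1.07.

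Rfc5 had the largest difference of the group. It was at 74.3, 89.7 and 86.8 CPM in sgControl and at 92.2, 121 and 126 CPM in sgZbtb1, and the lowest sgZbtb1 library, replicate 1, was close to the highest control. The log2 fold change was 0.42 (95% interval 0.14 to 0.71), with an adjusted p of 0.0676 by limma, 0.0411 by edgeR and 0.0564 by DESeq2. By limma the adjusted p was 0.0246 without sgZbtb1 replicate 1 and 0.0913 to 0.2985 without any other of the 6 libraries. Wsb2, whose 3′ end lies on the other strand, was at 9.37 ± 6.80 CPM in sgZbtb1 and 8.57 ± 6.90 CPM in sgControl. Pcna was at 153, 142 and 147 CPM in sgControl, at 167, 173 and 195 CPM in sgZbtb1, at 152.7, 177 and 163 CPM in sgCbfa2t2 and at 181, 177 and 160.1 CPM in sgCbfa2t3. None of the 3 groups overlapped the control, although in sgCbfa2t2 the gap was less than 1 read is worth. Log2 fold changes of Pcna were 0.27 in sgZbtb1 (0.05 to 0.50, adjusted p = 0.166), 0.15 in sgCbfa2t2 (-0.07 to 0.38) and 0.23 in sgCbfa2t3 (0.00 to 0.45, adjusted p = 0.4715). Pcna has processed copies, of which Pcna-ps1 was listed at 0 in all libraries and Pcna-ps2 at or below 1.14 CPM, and how reads that fit several places were counted is not given in the sources used here. Rfc4 was at 32.5, 40.5 and 45.15 CPM in sgControl and at 51.4, 48.8 and 52.5 CPM in sgZbtb1, which did not overlap (0.37, interval -0.03 to 0.78, adjusted p = 0.339, and 0.25 without sgControl replicate 1). Eif4a2, which overlaps its 3′ end on the other strand, differed by 0.03 (adjusted p = 0.970). Rfc2 and Rfc3 overlapped the control in all 4 groups, Rfc2 at -0.04 to 0.20 and Rfc3 at -0.23 to 0.24. Rfc1 was the least variable of the 40 genes, at 248 to 295 CPM in all 15 libraries.

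RPA, the heterotrimer that binds single-stranded DNA, holds the one gene that passed the test. The 3 subunits summed to 361, 353 and 337 CPM in sgControl, 441, 391 and 415 CPM in sgZbtb1, 378, 403 and 418 CPM in sgCbfa2t2 and 369.95, 407 and 398 CPM in sgCbfa2t3, each of these above the control, while sgLmo2, at 405, 348 and 351 CPM, overlapped it. Rpa2 was at 232, 238 and 224 CPM in sgControl and at 303, 284 and 291 CPM in sgZbtb1. It was at 286, 245 and 219.7 CPM in sgLmo2, at 259, 259 and 287 CPM in sgCbfa2t2 and at 244, 255 and 271 CPM in sgCbfa2t3. All sgZbtb1, sgCbfa2t2 and sgCbfa2t3 libraries were above all sgControl libraries, and only those of sgLmo2 overlapped them. In sgZbtb1 the mean was 292 ± 9.52 CPM against 231 ± 6.99 CPM (SD, n = 3). This is a log2 fold change of 0.34 (SE 0.098, 95% interval 0.14 to 0.53), or 1.26-fold, with a limma adjusted p of 0.0291. Adjusted p was 0.0221 by edgeR and 0.0177 by DESeq2, and the exact two-sided permutation p of this gene alone was 0.1, the smallest that 3 against 3 can give. The call depended on each library: leaving out any 1 of the 6, that is, sgControl replicates 1, 2 or 3 or sgZbtb1 replicates 1, 2 or 3, gave log2 fold changes of 0.31 to 0.36 with adjusted p from 0.0586 to 0.116. Set against the 9 libraries with sgRNAs to the other 3 genes, sgZbtb1 differed by 0.18 (adjusted p = 0.229).

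In the other groups the log2 fold change of Rpa2 was 0.10 in sgLmo2 (-0.09 to 0.30), 0.21 in sgCbfa2t2 (0.02 to 0.41, adjusted p = 0.480) and 0.15 in sgCbfa2t3 (-0.05 to 0.34, adjusted p = 0.636). Between sgZbtb1 and sgCbfa2t3 it was 0.19 (-0.01 to 0.39, adjusted p = 0.534), and those libraries did not overlap. Whether the sgZbtb1 and sgCbfa2t2 values differ was not tested. Rpa1, the large subunit, differed by -0.02 in sgZbtb1 (-0.29 to 0.24) and by 0.17 in sgCbfa2t3 (-0.09 to 0.43). Rpa3 was at 6.97, 15.6 and 6.45 CPM in sgControl and at 21.2, 12.9 and 12.8 CPM in sgZbtb1, with overlap. Its log2 fold change of 0.70 (-0.03 to 1.44, adjusted p = 0.317) is the largest of the 40 genes in sgZbtb1, but it rested on 11 to 46 reads a library and was 1.07 without sgControl replicate 2.

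**Figure D4:**
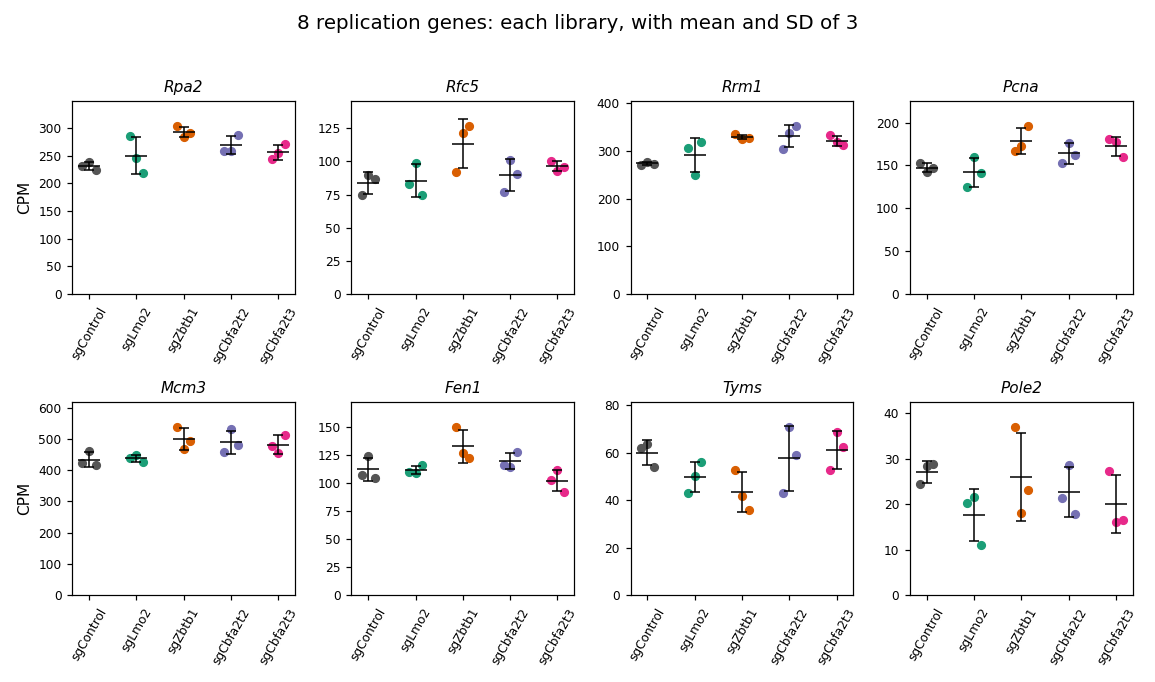
CPM (vertical axis, from 0) of 8 replication genes in the 5 groups (horizontal axis), with 1 point per library and bars for the mean and SD of 3. Rpa2 and Rrm1 lie above the tight sgControl points in all libraries of sgZbtb1, sgCbfa2t2 and sgCbfa2t3, Tyms lies below them in sgZbtb1, and Pole2 below them in sgLmo2.

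Fen1, which trims the flap of each Okazaki fragment, and Lig1, which seals the nick, did not pass the test in any comparison. Their summed level was 638, 639 and 582 CPM in sgControl and 659.8, 654 and 731 CPM in sgZbtb1, without overlap, and the other 3 groups overlapped the control. Fen1 was at 107, 124 and 105 CPM in sgControl, at 149.7, 127 and 122 CPM in sgZbtb1 and at 102, 111 and 92.5 CPM in sgCbfa2t3. The sgZbtb1 and sgCbfa2t3 libraries did not overlap, and the log2 fold change between them was 0.38 (95% interval 0.13 to 0.63, unadjusted p = 0.00378, adjusted p = 0.161), with 4 of 40 genes separated upwards (7.0% of all genes) and 2 downwards (7.62%) in this comparison. Against sgControl, Fen1 differed by 0.24 in sgZbtb1 (-0.01 to 0.49) and by -0.14 in sgCbfa2t3 (-0.39 to 0.11), where the value was -0.060 without sgControl replicate 2 and -0.068 without sgCbfa2t3 replicate 3. Gm10143, annotated over its 3′ end on the other strand, had reads in 1 of 15 libraries only. Lig1 was at 530.2, 515 and 477 CPM in sgControl and at 531, 532 and 589 CPM in sgCbfa2t3, which lay above by 0.12 (-0.05 to 0.28, adjusted p = 0.665).

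The nucleotide supply genes differed in the sign of their values. Rrm1 and Rrm2 form ribonucleotide reductase, Tk1 salvages thymidine and Tyms makes thymidylate, and 0 of the 4 passed the test. Rrm1 was at 271, 278 and 273 CPM in sgControl, at 335, 326 and 328 CPM in sgZbtb1, at 305, 337 and 351 CPM in sgCbfa2t2, at 333, 318 and 313 CPM in sgCbfa2t3 and at 306, 249.8 and 318 CPM in sgLmo2. The 3 control libraries were close together, and of the 12 others only sgLmo2 replicate 2 was not above them. Log2 fold changes of Rrm1 were 0.26 in sgZbtb1 (95% interval 0.08 to 0.45, adjusted p = 0.0876), 0.27 in sgCbfa2t2 (0.08 to 0.46, adjusted p = 0.308) and 0.23 in sgCbfa2t3 (0.04 to 0.42, adjusted p = 0.357).

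Tyms lay on the other side of the control in sgZbtb1, at 52.5, 41.6 and 35.8 CPM against 62.1, 63.7 and 53.9 CPM in sgControl. These libraries lay below the control by -0.47 on the log2 scale (-0.83 to -0.11, unadjusted p = 0.0111, adjusted p = 0.119), and below those of sgCbfa2t3, at 52.5, 68.5 and 62.6 CPM, by -0.50 (-0.86 to -0.14, adjusted p = 0.229). The gap between the nearest libraries of sgZbtb1 and sgCbfa2t3, 52.51 and 52.54 CPM, was less than 1 read is worth. The copy Tyms-ps stayed below what 3 reads are worth in all 15 libraries. Tk1 was at 107, 105 and 79.7 CPM in sgControl, at 92.7, 94.2 and 99.2 CPM in sgZbtb1 and at 105, 115 and 124 CPM in sgCbfa2t3. Its sgZbtb1 libraries fell inside the control range (-0.02, interval -0.29 to 0.25), and they lay below sgCbfa2t3 without overlap (-0.26, interval -0.53 to 0.01, adjusted p = 0.536). Rrm2 differed by 0.23 in sgCbfa2t3 (-0.01 to 0.46, adjusted p = 0.486) and by -0.01 in sgZbtb1 (-0.25 to 0.22). The summed level of the 4 genes was 593, 582 and 567 CPM in sgControl, 645, 594 and 607 CPM in sgZbtb1, 595, 688 and 651 CPM in sgCbfa2t2 and 679, 681 and 656 CPM in sgCbfa2t3. These 3 groups lay above the control, with mean ratios of 1.06, 1.11 and 1.16, while sgLmo2 overlapped it.

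ChIP-seq peaks of Zbtb1 and of Cbfa2t3, called by the authors with HOMER in LP cells that carried no sgRNA, were then placed beside these genes. Each list holds peaks found in both replicates, 5898 for Zbtb1 and 6077 for Cbfa2t3, with coordinates on mm10, and each peak carries the authors' nearest gene. Zbtb1 peaks were assigned to 11 of the 40 genes (27.5%, against 26.8% of all genes tested), and 10 of the 11 had one within 1000 bp of the start (25%, against 18.1%). Cbfa2t3 peaks were assigned to 6 of the 40 (15% against 20.5%), and Pold3 alone had one within 1000 bp (2.5% against 6.41%). No test of these shares was made, and no input or replicate track was analysed here.

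By normalized peak score, which is a tag count scaled to a fixed library size, the peak at Pcna was the highest of the 10 near a start, at 146.4 and 409 bp downstream (chr2:132252586-132252956, in an intron). Pold3 followed at 88.4, Cdt1 at 84.2 and Pold2 at 49.0, and Rfc5, Gins4, Rfc4, Mcm5, Pold1 and Rpa2 were between 15.2 and 25.5. The peak at Rpa2 (chr4:132768380-132768750, in an intron, 205 bp downstream of the start) was the weakest of the 10 and ranked 5792 of the 5898 peaks, in a list that holds scores of at least 15. The strongest Zbtb1 peak given to any of the 40 genes, at 174.2, was 24793 bp from the start of Gins2. That peak (chr8:120564097-120564467, in an intron) lies beyond the 3′ end of Gins2 (chr8:120578633-120589304, minus strand), so it is outside that gene. At Pold3 a Zbtb1 peak and a Cbfa2t3 peak overlapped by 62 bp, and at this site outside Gins2 by 82 bp.

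**Figure D5:**
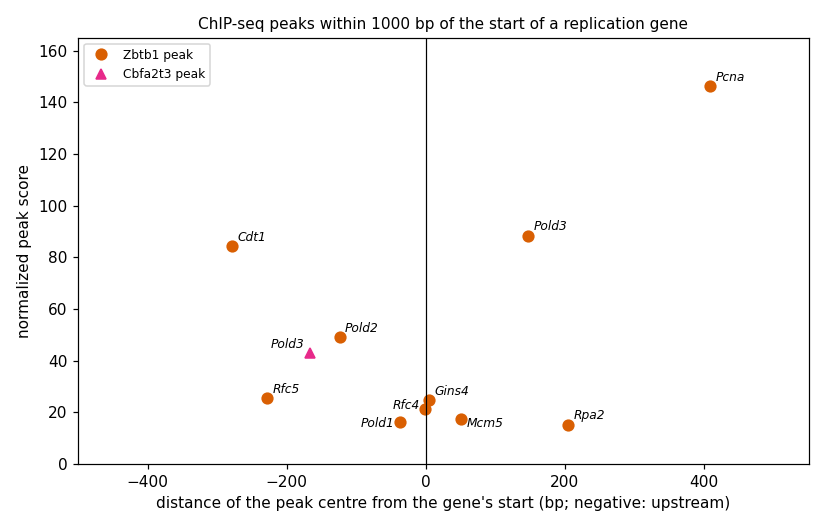
Normalized peak score (vertical axis) against the distance in bp of the peak centre from the gene's start (horizontal axis, negative upstream) for the 10 Zbtb1 peaks (circles) and the 1 Cbfa2t3 peak (triangle) within 1000 bp of a replication gene's start. Pcna has the highest score, 146.4, and Rpa2 the lowest, 15.2.

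The bases under 3 of these peaks are printed, those at the gene that passed the test, at the single Cbfa2t3 start-site peak and at Cdt1, the one Zbtb1 stretch of 9 that holds the Runx core. The other 8, among them the stretches at Pcna and Pold3, whose Zbtb1 peaks scored above that at Cdt1, do not hold these letters, and the 9 were 55 to 200 bases long. They are stretches outside exons within 100 bases of the peak centre, on the gene's strand of GRCm38.p6, namely chr4:132768467-132768634 at Rpa2 (plus), chr8:122567636-122567835 at Cdt1 (plus) and chr7:100121566-100121765 at Pold3 (minus). The window at the Rfc5 peak held no bases outside exons and gave no stretch. Exon bases were not searched, and no share of the core over all Zbtb1 peaks was taken. Capitals mark the Runx core TGTGGT, or ACCACA where it is on the other strand. It stands at position 96 of the Cdt1 stretch and at position 79 of the Pold3 stretch, counted from 1 at the 5′ end.
Zbtb1 peak at Rpa2: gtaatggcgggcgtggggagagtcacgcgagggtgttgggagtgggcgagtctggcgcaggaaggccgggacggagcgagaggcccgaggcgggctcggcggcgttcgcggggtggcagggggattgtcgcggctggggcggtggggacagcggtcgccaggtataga
Zbtb1 peak at Cdt1: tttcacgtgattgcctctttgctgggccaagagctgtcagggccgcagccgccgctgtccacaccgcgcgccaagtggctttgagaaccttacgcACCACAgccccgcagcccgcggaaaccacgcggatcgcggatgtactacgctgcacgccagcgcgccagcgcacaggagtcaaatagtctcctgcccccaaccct
Cbfa2t3 peak at Pold3: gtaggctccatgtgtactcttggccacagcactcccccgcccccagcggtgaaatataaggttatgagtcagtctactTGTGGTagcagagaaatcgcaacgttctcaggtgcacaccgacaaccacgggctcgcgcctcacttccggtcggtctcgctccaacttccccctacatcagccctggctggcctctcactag

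The 10 genes with a Zbtb1 peak near the start were compared with the other 30 as a description, a split made after the values were seen. In sgZbtb1 against sgControl, 9 of the 10 had a log2 fold change above 0, with a median of 0.21 and a range of -0.09 to 0.42, and 5 lay above the control without overlap (Pcna, Pold2, Rfc4, Rfc5 and Rpa2), as did 12.7% of all genes with such a peak and 10.1% of all genes tested. Of the other 30, 22 were above 0, with a median of 0.09, and 4 did not overlap upwards. Among all genes tested, the median was -0.01 for the 2096 with such a peak and -0.03 for the 9458 without. The same 10 genes had a median of 0.15 in sgCbfa2t2, 0.13 in sgCbfa2t3 and 0.00 in sgLmo2, comparisons that share the 3 sgControl libraries. For the 21 genes with an E2F spelling in the promoter the median in sgZbtb1 was 0.14, and for the 12 with a promoter entry and no such spelling it was 0.13.

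Beyond the 40, a list of 46 other replication genes (other licensing, fork, chromatin assembly and nucleotide genes) was examined, of which 45 were tested. In sgZbtb1, 3 of the 45 rose (1.85% of all genes) and 0 fell (2.94%), and 8 had an unadjusted p under 0.05, a share of the list near the 17.6% of all genes. Fam111a, a protease that acts at replication forks, was at 321 ± 22.5 CPM against 246 ± 15.8 CPM in sgControl (0.38, adjusted p = 0.0154). Nasp, a chaperone of histone H3, was at 426 ± 34.2 CPM against 334.5 ± 25.3 CPM (0.35, adjusted p = 0.0132), and Dut, which hydrolyses dUTP, was at 405 ± 28.9 CPM against 329 ± 17.2 CPM (0.30, adjusted p = 0.0301). Of the 45, edgeR and DESeq2 also called 3 in sgZbtb1. In sgLmo2, sgCbfa2t2 and sgCbfa2t3 limma called 0 of the 45, with 1, 5 and 3 at an unadjusted p under 0.05 (5.65%, 9.56% and 10.6% of all genes), and edgeR and DESeq2 called 0 too, with 2, 4 and 3 and with 1, 4 and 2 at an unadjusted p under 0.05. Median log2 fold changes of the 45 were -0.03, 0.10, 0.06 and 0.07 in sgLmo2, sgZbtb1, sgCbfa2t2 and sgCbfa2t3. Their summed level was 5695 to 5868 CPM in sgControl, 6227 to 6315 CPM in sgZbtb1 and 5879 to 6017 CPM in sgCbfa2t3, neither of which overlapped the control.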

How the data were processed

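QuantSeq libraries (single reads) were made from sorted LP cells, and per the labels and methods reads were trimmed with fastp and mapped to mm10 with STAR. Although named TPM, the deposited table holds CPM as the authors scaled it, with no division by length: within 0.1 read, 99.998 to 100% of values are whole multiples of what 1 read is worth. The counting tool, annotation and use of strand are not given in the sources used here. Of 55422 lines, 1 without a gene ID was left out. The deposited peak score is HOMER's, for peaks called against input after mapping with Bowtie 1.1.1 and kept when found in both replicates.

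Log2(CPM + 1) of 11554 genes with a mean above 1 was fitted over 15 libraries with limma 3.58.1 (R 4.3.3), with Benjamini-Hochberg adjustment over all of them and a threshold of 0.05. EdgeR 4.0.16 and DESeq2 1.42.0 on the recovered reads, other pseudocounts, filters, scalings and library sets were alternatives. The self-test on simulated sgZbtb1 and sgControl libraries, in a fit of 11576 genes, recovered 99% of 2-fold and 100% of 4-fold changes. There were 17 false calls beside 200 changed genes. The changed genes were drawn from a range of levels above those of Rpa3 and Orc1, and the same added spread was set for every gene. Changes under 2-fold, the size of those described here, were not simulated, so the self-test does not show how many of these would be found. Replicates are separate samples of 1 line, so p-values measure the spread between these samples.

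The members, lists and tests were chosen with earlier results of these data known. Genes were named when they passed the test, were among the 3 highest or 3 lowest log2 fold changes of a comparison, had the highest or lowest mean of their role, or had a peak within 1000 bp of the start. The other members were named after their values were seen. Tables and permutation tests used scipy 1.17.1, pandas 2.3.3 and numpy 2.4.6 under Python 3.11.15, sequences pysam 0.24.0 and plots matplotlib 3.10.9. Input samples were not analysed here.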

Additional observations from a re-analysis of the deposited data

How the results depend on the processing

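Depth limits the low genes, such as Rpa3, Orc1 and Pole2, which rested on 11 to 66 reads a library. The count of replication genes passing in sgZbtb1 against sgControl was 1. It was 0 with all genes above 0 kept (Rpa2 adjusted p = 0.062), 0 against the 9 other gene-targeting libraries and 0 by the study's thresholds on unlogged values, each pair of groups tested alone, and it was 2 (Rfc5 and Rpa2) with the 6 libraries fitted alone and with edgeR. With 1 library left out it ranged from 0 to 1, where the 1, without sgZbtb1 replicate 1, was Rfc5. In the other 4 comparisons it was 0 under every alternative that was run. Of 490 alternative values of 31 named log2 fold changes, 472 kept their sign and side of the threshold. Reversed values were those of Pole2 against the 9 other libraries, at 0.35 in sgZbtb1 and 0.13 in sgCbfa2t2, of Pole2 in sgZbtb1 without sgZbtb1 replicate 2, at 0.10 (range with 1 library left out -0.39 to 0.10), of Prim2 in sgCbfa2t3 without sgCbfa2t3 replicate 3, at 0.14 (range -0.28 to 0.14), and of Rpa3 in sgCbfa2t3 against the 9 other libraries, at -0.064. The cause was not tested. Over all genes the count passing in sgZbtb1 was 554, and 330 with all genes above 0 kept or 171 by those thresholds on unlogged values. In sgLmo2 it was 2, and 201 against the 9 other libraries or 23 by those thresholds. In sgCbfa2t2 it was 17, and 9, 0 and 44 against the 9 other libraries, with all genes above 0 and by those thresholds. In sgCbfa2t3 it was 62, and 31 and 24 in the first 2 of these. Between sgZbtb1 and sgCbfa2t3 it was 130, and 80 with all genes above 0 and 75 by those thresholds. With 1 library left out these counts were 306 to 459 in sgZbtb1 (353 and 330 without sgControl replicates 2 and 3, 306 without sgZbtb1 replicate 3), 1 to 4 in sgLmo2 (1 without sgControl replicate 2 or sgLmo2 replicate 2 or 3, 4 without its replicate 1), 2 to 26 in sgCbfa2t2 (2 without its replicate 2 or sgControl replicate 3, 6 without sgControl replicate 2, 26 without its replicate 3), 26 to 59 in sgCbfa2t3 (26 and 27 without sgControl replicates 2 and 3, 30 without its replicate 1) and 86 to 107 between sgZbtb1 and sgCbfa2t3 (86 without sgZbtb1 replicate 2). Genes with a Zbtb1 peak numbered 11, and 5 at a score of at least 30 (12.5%, against 14.3% of all genes). Those with a Cbfa2t3 peak numbered 6, and 3 at a score of at least 30 (7.5% against 12.8%), 1 within 1000 bp (2.5% against 6.41%) and 2 within 10000 bp of the start (5% against 12.6%).

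With the replicate number as a block, 2 replication genes passed in sgZbtb1, Rfc5 and Rpa2, and over all genes 36 passed in sgCbfa2t2 and 14 in sgLmo2. The block changed no call on the replication genes in the other 4 comparisons. The numbers were not taken to pair the samples: over 8157 genes, 30 same-number pairs had a mean correlation of 0.0408 (-0.0131 to 0.113, 2 over 0.1) and 60 other pairs one of -0.0204. For 13 of 15 libraries, however, the mean correlation with libraries of other groups was highest for those of their own number, which is a hint from the data and not from the design.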

Other observations

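The 20 mitosis genes looked at beside the replication genes, among them Mki67, Top2a, Cdk1 and Plk1, were all tested and none passed by limma in any comparison. At an unadjusted p under 0.05 there were 0, 5, 1 and 4 of them in sgLmo2, sgZbtb1, sgCbfa2t2 and sgCbfa2t3 against sgControl (5.65%, 17.6%, 9.56% and 10.6% of all genes), and edgeR and DESeq2 called 0 too, with 0, 5, 1 and 5 and with 1, 5, 1 and 4 at an unadjusted p under 0.05. Their summed levels were 5918 to 6146 CPM in sgControl, 6236 to 6443 CPM in sgZbtb1 and 6451 to 6635 CPM in sgCbfa2t3, so that both groups lay above the control, while sgLmo2, at 5707 to 5949 CPM, and sgCbfa2t2, at 5717 to 6079 CPM, overlapped it.

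Of 23 genes that control entry into the cell cycle, 1 rose and 2 fell in sgZbtb1 (4.79% of all genes passed) and 2 rose in sgCbfa2t3 (0.537%) by limma, and edgeR and DESeq2 each called 2 in sgZbtb1 (E2f2 and Cdkn1a, not Cdkn1b) and 2 in sgCbfa2t3. None passed in sgLmo2 or sgCbfa2t2, where 4 and 4 had an unadjusted p under 0.05, against 5.65% and 9.56% of all genes (4 and 3 by edgeR, 0 and 2 by DESeq2, which both called 0). E2f2, an activating E2F factor, was at 77.8 ± 4.83 CPM in sgControl, fell to 48.7 ± 7.32 CPM in sgZbtb1 (log2 fold change -0.68, adjusted p = 0.00209) and rose to 149.8 ± 5.66 CPM in sgCbfa2t3 (0.94, adjusted p = 6.22e-05). The direct comparison of sgZbtb1 with sgCbfa2t3 gave -1.61 (95% interval -1.91 to -1.31, adjusted p = 2.09e-12). Cdkn1a, the inhibitor p21, rose in sgZbtb1 to 678 ± 48.8 CPM from 491 ± 15.4 CPM (0.46, adjusted p = 0.000496). Cdkn1b, the inhibitor p27, was at 32.4 ± 2.99 CPM against 49.5 ± 2.34 CPM (-0.60, adjusted p = 0.04995), just inside the threshold. Ccnd2, cyclin D2, rose in sgCbfa2t3 to 1577 ± 171 CPM from 1130.0 ± 57.8 CPM (0.48, adjusted p = 0.000116) and differed between sgZbtb1 and sgCbfa2t3 by -0.46 (adjusted p = 8.44e-05). In the same libraries the median log2 fold change of the 40 replication genes was 0.11 in sgZbtb1 and 0.12 in sgCbfa2t3.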
